A study of Mus musculus with 30 samples.

Results

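CTCF sites far from promoters that lost their CTCF peak after degradation, and that carried no cohesin peak beforehand, were examined in mouse embryonic stem cells. The sites were chosen from deposited ChIP-seq peak lists in 4 steps. A site was a CTCF peak of the 0 h library on chromosomes 1 to 19 or X that overlapped no CTCF peak of the 12 h library. Its summit, the point of highest signal, lay more than 1 kb from every transcription start site of the GENCODE M21 basic annotation (build GRCm38). The window from 100 bp before to 100 bp after the summit overlapped no peak of the 0 h SMC1A list. This rule gave 13651 of the 29934 CTCF peaks at 0 h (45.6%), called cohesin-free lost sites here. The name means only that the 0 h SMC1A list had no peak there, and cohesin below the calling limit may be present. The 10535 sites that met the same rule but had an SMC1A peak in the window are called cohesin-bearing lost sites. Another 3513 lost peaks lay within 1 kb of a start site, and 2227 peaks on these chromosomes kept a 12 h peak. CTCF loss, promoter distance and absence of an SMC1A peak are therefore what chose the sites, and are no result.

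All cells were E14 mouse embryonic stem cells of genotype CTCF AID, in which CTCF carries an auxin-inducible degron. The degron is a tag through which the auxin IAA sends the protein to the proteasome. Cells grew in serum-free medium with LIF and the inhibitors PD0325901 and CHIR99021, and were taken without IAA (0 h) or after 12 h of IAA. CTCF and SMC1A were mapped in CTCF AID cells, with 1 library per time each. The remodelers CHD4, CHD8, SMARCA4 and SMARCA5 came from lines of genotype CTCF AID and biotin-CHD4, biotin-CHD8, biotin-SMARCA4 or biotin-SMARCA5, with 2 libraries at each time, 16 in all. The labels do not say how many clones each line stands for or whether the 2 libraries came from separate cultures. The p-values therefore measure only the spread between these libraries, which may be technical. Remodeler lists held from 40880 to 187294 peaks and give no read depth, so the depth behind each list is unknown. Peak lists hold no expression, so stem cell identity was not checked against marker genes.

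Through its zinc fingers CTCF recognises a long DNA motif, and it halts cohesin, the ring-shaped complex that extrudes chromatin loops. SMC1A is one of the core subunits of that ring, so an SMC1A peak marks where cohesin has accumulated. The remodelers are ATPases of different complexes. CHD4 works in NuRD, a nucleosome remodeling and deacetylase complex, and in ChAHP, where it pairs with ADNP and HP1 proteins. CHD8 is a chromodomain remodeler that is known to bind CTCF. SMARCA4 (BRG1) is an engine of the BAF complexes, which evict nucleosomes, and SMARCA5 (SNF2H) is the engine of ISWI complexes, which space nucleosomes and are known to be needed for CTCF binding.

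The DNA of the sites is shown first because the sites differed by it. A motif model was built from the CTCF peaks kept at 12 h, none of which belongs to the cohesin-free lost sites, and both strands of each window were searched. The first sequence below is the consensus of that model, and the next 4 are the most frequent best matches at cohesin-free lost sites. The last is the most frequent match followed by the most frequent base at each of the next 15 positions, taken position by position. Capitals mark the CTCF motif match, and N is any base.
model consensus: GCCACNAGGGGGCGC
match at 496 sites: GCCAGAAGAGGGCAT
match at 315 sites: GCCAGAAGAGGGCAC
match at 261 sites: GCCAGAAGAGGGCGT
match at 224 sites: GCCAGAAGAGGGCGC
repeated sequence: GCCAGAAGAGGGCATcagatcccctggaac

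A match was a score reached by 5% of windows moved 100 kb to either side. It was present at 88.1% of the cohesin-free lost sites (exact Clopper-Pearson 95% interval 87.5% to 88.6%), at 97.0% of the cohesin-bearing ones (96.6% to 97.3%) and at 96.3% of kept sites. These intervals cover counting error over sites of a single library only. With a score reached by 1% of moved windows, matches remained at 60.2% and 74.7% of the lost sites without and with cohesin. The match lay within 25 bp of the CTCF summit at 83.9% of matched cohesin-free sites and at 91.1% of matched cohesin-bearing ones. On strand the sites showed no lean, with 50.4% of matches (49.5% to 51.3%) on the plus strand.

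The 12025 matches comprised 4997 different sequences, of which 3442 occurred once. The most frequent sequence alone made up 4.12% of them. The repeated sequence of 30 bases, read from the motif onwards, was then compared with every site, and sites with at most 10 mismatches were called copies. That limit lies beside a dip at 11 mismatches in the distribution over sites, and was chosen after the sequences were seen. Copies made up 3624 cohesin-free lost sites (26.5%, interval 25.8% to 27.3%), 23.9% of the cohesin-bearing lost sites, 8.65% of the promoter sites and 7.54% of the kept sites. When the 30 bases were searched at every position of a window and on both strands, 27.4% of the cohesin-free windows held a copy, against 2.33% of the same windows moved by 100 kb. The genome sequence marks repeats in lower case, and on average 65.7% of a copy's window was so marked, against 15% at other cohesin-free sites. The CTCF motif inside SINE B2 elements, short mobile elements of rodents, is well known. No repeat annotation was used here, so whether these copies are such elements was not tested.

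Peaks at the cohesin-free sites were weaker than at the others in the authors' CTCF list. Their median fold enrichment was 9.20, against 15.4 at cohesin-bearing lost sites and 27.7 at kept sites, and their median −log10 q was 19.3, against 45.4 and 108. Across 10 equal classes of all distal lost sites by −log10 q, cohesin-free sites were 90.4% of the weakest class and 24.2% of the strongest. Because all of these values come from the lists that chose the sites, they are a description.

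Most sites lay inside genes or between them, and few in exons. Of the cohesin-free lost sites, 53.7% had their summit in an intron, 39.4% in intergenic sequence and 6.87% in an exon or UTR. The median distance to a start site was 12151 bp, and the median distance to the nearest cohesin-bearing CTCF site was 32261 bp. Near the distance limit, the sites closest to Cox19 (1002 bp, fold 29.1) and to the transcript AC160966.1 (1001 bp, fold 13.7) fell inside the rule. Those closest to Ift122 (999 bp, fold 12.9) and Gm22717 (998 bp, fold 4.96) fell outside it. For cohesin, 22 sites had an SMC1A peak that touched the CTCF peak but not the window.

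The question of the design, what CTCF loss does to remodelers on chromatin, was put to these sites through occupancy, the percentage of sites whose window overlapped a peak of a library by at least 1 bp. CHD4 was the remodeler most often found there at 0 h. It also had the longest 0 h lists, of 111947 and 187294 peaks, against 40880 to 92456 for the other remodelers. The part of list length in this order was not tested. CHD4 occupied 39.7% and 30.6% of the cohesin-free sites at 0 h, and 14.2% and 8.31% at 12 h. Every 12 h library was below every 0 h library, and the mean went from 35.2% ± 6.4 to 11.2% ± 4.1 (SD, n = 2 libraries), a ratio of 3.13. CHD8, at 13.6% and 9.99% before and 6.93% and 4.74% after IAA, also showed no overlap between times. SMARCA5 occupied 8.68% and 12.4% of sites at 0 h and 6.93% and 6.0% at 12 h, again without overlap. With a remodeler summit required in the window, SMARCA5 was at 2.04% and 3.19% at 0 h and 2.10% and 1.82% at 12 h, so the times overlapped, as they did at a remodeler −log10 q of at least 5 (2.71% and 4.54% against 2.80% and 2.40%). SMARCA4 occupied 18.9% and 11.8% at 0 h and 12.4% and 14.8% at 12 h, so its 12 h libraries lay between its 0 h libraries. Windows moved by 100 kb were occupied at 2.78% to 9.43% over the 16 libraries. At 12 h the moved windows of CHD8 and of SMARCA5 were at 4.07% on average, beside 5.83% and 6.46% at the sites. The cohesin-bearing lost sites, which are most like these, were at 33.9% and 11.8% for CHD4 at 0 h and 12 h, 18.8% and 7.59% for CHD8, 22.9% and 17.2% for SMARCA4 and 14.5% and 7.96% for SMARCA5 on average.

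**Figure D1:**
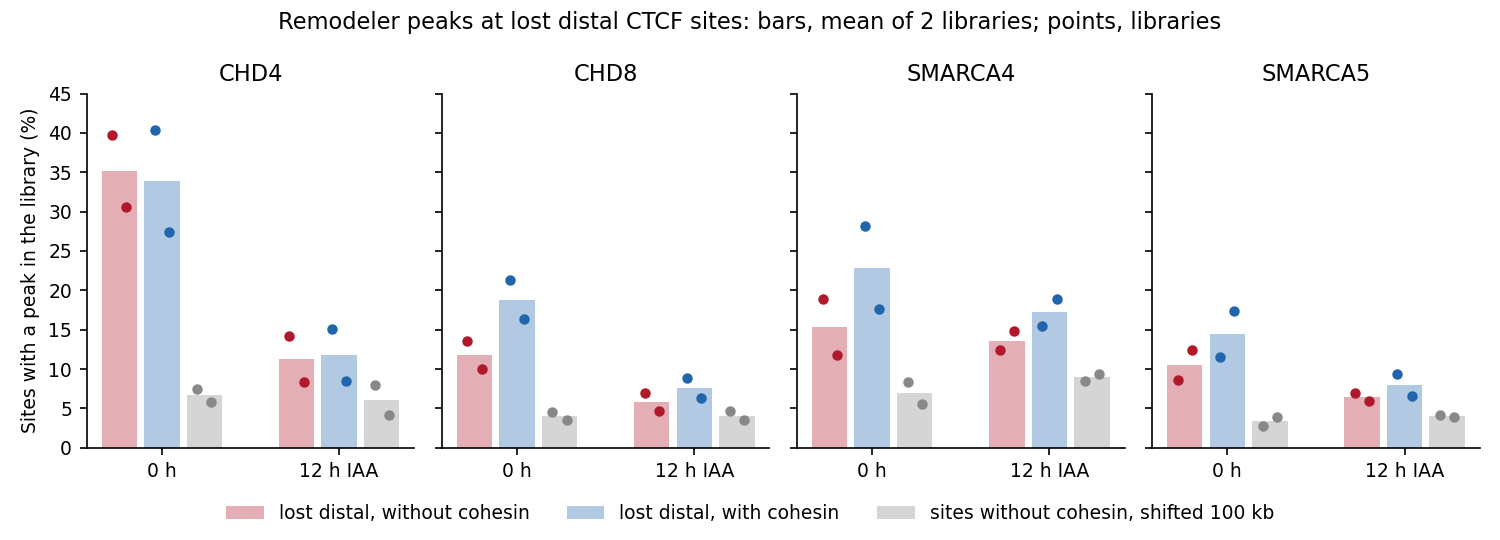
Percentage of sites with a remodeler peak (y axis) at 0 h and after 12 h of IAA, for lost distal CTCF sites without cohesin, with cohesin, and for the cohesin-free sites shifted by 100 kb. Bars are means of 2 libraries and points are libraries. CHD4 stands at 39.7% and 30.6% at 0 h and at 14.2% and 8.31% at 12 h, while the 12 h points of SMARCA4 lie between its 0 h points.

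Mean occupancy changed by −23.9 percentage points for CHD4, −5.96 for CHD8, −1.75 for SMARCA4 and −4.07 for SMARCA5. Over the 4 remodelers, occupancy of the cohesin-free sites fell by 8.93 percentage points on average, a mean in which CHD4 weighed most. The mean change was negative in 4 of 4. An exact stratified permutation test, in which time labels were exchanged within each remodeler, gave p = 0.00772 (two-sided), and 0.0193 after Benjamini-Hochberg adjustment over the 5 tests made. The smallest p that 1296 relabellings allow is 0.00154, and within 1 remodeler 2 libraries against 2 cannot go below 0.333. The peaks follow 2 naming patterns, with the time or the target first, and what these stand for is not given. Within the patterns, the difference in SMARCA4 occupancy was −4.09 and 0.59 points and that of SMARCA5 −2.68 and −5.45. Among the CHD4 libraries named with the target first, 2 of 0 h and 1 of 12 h, it was −26.9, and CHD8 had a single pattern. Without the first SMARCA4 library of 0 h the SMARCA4 change was 1.77 points, against −1.75 with all, and without the second SMARCA5 library of 0 h that of SMARCA5 was −2.22, against −4.07.

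A longer list occupies more of any kind of site, so the change was also measured against distal regions away from CTCF that the other 3 remodelers occupy. The libraries that chose these regions included those of 12 h, so regions that kept other remodelers were favoured. The log2 odds of a peak at cohesin-free lost sites against these regions is called relative occupancy. For CHD4 it was −2.25 and −1.75 at 0 h and −4.57 and −3.51 at 12 h. CHD8 had −1.87 and −1.65 before IAA and −3.29 and −3.15 after it. SMARCA4, whose plain occupancy overlapped between times, had −4.96 and −4.84 at 0 h and −5.82 and −5.95 at 12 h. SMARCA5 went from −2.02 and −2.07 to −3.31 and −3.04. Mean occupancy of the reference regions was 67.8% and 65.3% for CHD4 and 31.2% and 36.5% for CHD8 at 0 h and 12 h. It was 83.6% and 90.2% for SMARCA4 and 32.5% and 38.4% for SMARCA5. For CHD8, SMARCA4 and SMARCA5 the fall in relative occupancy thus includes a rise at the reference regions. Mean SMARCA4 occupancy of the cohesin-free sites was 15.4% at 0 h and 13.6% at 12 h. By overlap of peaks the 2 times were apart in relative occupancy in all 4 remodelers. With a summit required in the window SMARCA4 was at −3.36 and −3.46 at 0 h and −3.51 and −3.40 at 12 h, so its times overlapped and its mean change was −0.04 in place of −0.99. The other 3 stayed apart in that setting, with changes of −2.41 for CHD4, −1.93 for CHD8 and −0.72 for SMARCA5. The mean change of −1.40 gave an exact stratified permutation p of 0.00154, the smallest possible, and 0.00772 after adjustment. Within the naming patterns the difference was −0.99 and −0.98 for SMARCA4, −1.02 and −1.24 for SMARCA5 and −1.51 for CHD4.

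The median percentile of the peaks at cohesin-free sites within their own list was compared too, over the peaks present at each time, which are different sets. The mean change of 3.63 did not pass (exact stratified permutation p = 0.116, also 0.116 adjusted). For SMARCA4 it was 56.2 and 56.3 at 0 h and 66.3 and 67.0 at 12 h, and for CHD8 48.0 and 44.4 at 0 h and 57.8 and 51.6 at 12 h. CHD4, at 63.7 and 69.4 before and 64.6 and 58.9 after IAA, and SMARCA5, between 52.3 and 53.7 in all libraries, overlapped between times. The call changed without CHD4, where the mean change was 6.44 (exact permutation, adjusted p = 0.0391). With lists shortened to equal length it changed too (4.81, exact permutation, adjusted p = 0.0293).

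Site by site, loss was again led by CHD4. A site lost a remodeler when both 0 h libraries had a peak and no 12 h library did. CHD4 was lost at 1845 cohesin-free sites (13.5%), against 12% of all 0 h CTCF sites, so the share was near the background of CTCF sites. These were 52.4% of the 3518 sites with CHD4 in both 0 h libraries. Among the distal reference regions with CHD4 in both 0 h libraries, 3.30% lost it, and 1.8% of all reference regions had this call. Reference regions were chosen for peaks of other remodelers, those of 12 h included, so they are not like sites. At cohesin-free sites with CHD4 in both 0 h libraries and a peak in 4 to 6 of the 6 other 0 h libraries, 12.8% lost it. Among cohesin-bearing lost sites with CHD4 in both 0 h libraries the share was 47.9%. For CHD8 it was 35.1% at cohesin-free and 41.8% at cohesin-bearing sites, for SMARCA4 14.7% and 16.8%, and for SMARCA5 33.4% and 34.4%. CHD8 was lost at 380 sites (2.78%, against 4.52% of all CTCF sites and 1.4% of reference regions). SMARCA4 was lost at 203 (1.49%, against 2.21% and 0.468%) and SMARCA5 at 238 (1.74%, against 2.38% and 1.79%). For these 3 remodelers the share was below that of all CTCF sites. The counts depended on how a peak was scored. With a summit required in the window they were 1117 for CHD4 (8.18%, against 7.06% of all CTCF sites), 174 for CHD8 (1.27%, against 2.68%), 45 for SMARCA4 (0.330%, against 0.441%) and 33 for SMARCA5 (0.242%, against 0.311%). At a remodeler −log10 q of at least 5 they were 1067 (7.82%, against 6.95%), 198 (1.45%, against 2.75%), 109 (0.798%, against 1.37%) and 71 (0.520%, against 0.832%) in the same order. The reverse, a gain, was found at 16 sites for CHD4, 29 for CHD8, 115 for SMARCA4 and 47 for SMARCA5. As shares these were 0.12%, 0.21%, 0.84% and 0.34%, beside 0.13%, 0.2%, 1.02% and 0.658% of all 0 h CTCF sites and 1.78%, 3.52%, 2.69% and 3.56% of the reference regions. A peak in all 4 libraries was kept at 836 sites for CHD4, 461 for CHD8, 962 for SMARCA4 and 257 for SMARCA5. These are 6.12%, 3.38%, 7.05% and 1.88% of the sites, against 11.8%, 11.3%, 14.9% and 4.34% of all CTCF sites and 39.2%, 16.7%, 73.5% and 11.7% of the reference regions. Gained and kept peaks were thus no more frequent at cohesin-free sites than at CTCF sites as a whole, except for CHD8 gains, at 0.21% beside 0.2%.

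Cohesin-free sites differed from cohesin-bearing ones in which remodelers they held before CTCF loss. The contrast, the log2 odds ratio of a peak at cohesin-free against cohesin-bearing lost sites, was −0.79 and −0.81 for CHD8 at 0 h. It was −0.75 and −0.67 for SMARCA4 and −0.46 and −0.57 for SMARCA5, all below 0. CHD4 alone lay near 0, with −0.04 and 0.22. The mean over the 8 libraries was −0.48, with 7 of 8 negative (exact sign-flip permutation p = 0.0234, 0.0391 adjusted). This call was lost when the cohesin-bearing sites were weighted to the CTCF peak strength of the cohesin-free ones (−0.06, exact permutation, adjusted p = 0.672), and with any 1 library left out except the second CHD4 library (−0.55 to −0.44, adjusted p up to 0.0781). The change of the contrast from 0 h to 12 h was 0.19 on average and did not pass after adjustment (exact stratified permutation p = 0.0401, 0.0502 adjusted). It passed without the second CHD4 library of 0 h (0.22, exact permutation, adjusted p = 0.0195) and without the first SMARCA5 library of 12 h (0.23, adjusted p = 0.0309). Weighting turned its sign to −0.16, with an adjusted p of 0.145 by the exact permutation test.

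With strength weighted in this way, the contrast of CHD4 lay above 0 and those of the others below it when peaks were scored by overlap. The CHD4 contrast at 0 h was 0.45 and 0.61, that is, cohesin-free sites held CHD4 more often than cohesin-bearing sites of the same CTCF peak strength. At 12 h it was 0.04 and −0.03. The weighted values at 0 h were −0.17 and −0.25 for CHD8, −0.32 and −0.42 for SMARCA4 and −0.21 and −0.15 for SMARCA5. With a summit required in the window CHD4 (0.79 and 0.72) and CHD8 (−0.15 and −0.20) kept their sides, but SMARCA4 (−0.01 and 0.04) and SMARCA5 (−0.15 and 0.25) did not lie on one side of 0. In the upper 50% of lost distal sites by strength SMARCA5 was above 0, at 0.10 in both libraries. In all 10 strength classes mean CHD4 occupancy at 0 h was higher at cohesin-free sites, against 2 of 10 for CHD8, 0 of 10 for SMARCA4 and 4 of 10 for SMARCA5. In the weakest class CHD4 was at 32.3% of cohesin-free and 24.4% of cohesin-bearing sites, and in the strongest at 52.0% and 51.8%. The difference between remodelers was not tested.

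**Figure D2:**
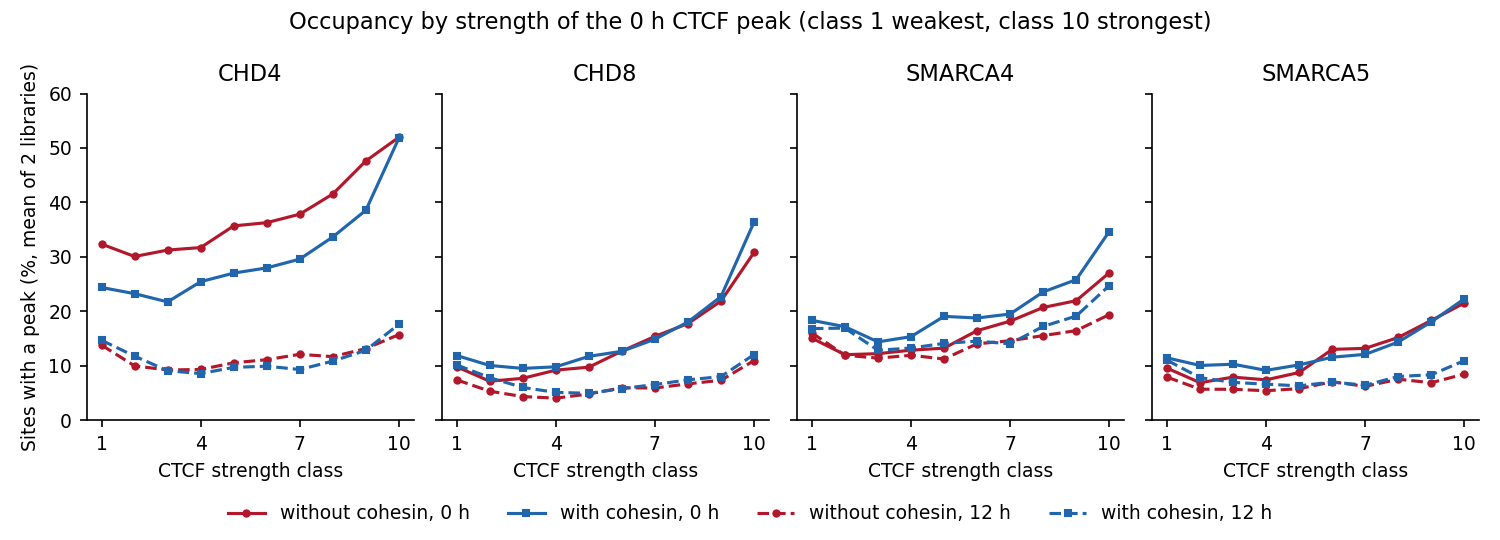
Mean occupancy of 2 libraries (y axis, percent of sites) over 10 classes of 0 h CTCF peak strength (x axis, class 1 weakest) for lost distal sites without cohesin and with cohesin, at 0 h (solid) and 12 h (dashed). The 0 h CHD4 line of cohesin-free sites runs from 32.3% in the weakest class to 52.0% in the strongest, above the cohesin-bearing line in 10 of 10 classes.

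The remodelers also differed in how often they sat on copies of the repeated sequence. Copies held CHD4 at 51.4% and 37.7% at 0 h, against 35.5% and 28.1% of the other cohesin-free sites. CHD8 was at 5.96% and 4.44% of copies against 16.4% and 12.0% of other sites, and SMARCA4 at 12.8% and 8.42% against 21.1% and 13.1%. SMARCA5 was at 8.39% and 11.3% of copies and 8.79% and 12.8% of others. For CHD8 the copies were close to their own moved windows, 5.59% and 4.11% in the same libraries, so CHD8 at copies was near the level of moved windows. Moved windows of copies held SMARCA4 at 9.80% and 6.40%, SMARCA5 at 3.09% and 4.40% and CHD4 at 8.71% and 7.13%. As log2 odds of copies against other sites, CHD4 had 0.94 and 0.63, CHD8 −1.62 and −1.55, SMARCA4 −0.86 and −0.71 and SMARCA5 −0.07 and −0.20. With copies limited to at most 6 mismatches the mean for SMARCA5 was −0.55 in place of −0.14 and that for SMARCA4 −1.21 in place of −0.79. CTCF peaks at copies were weaker (median fold 8.16 against 9.57). At cohesin-bearing lost sites the same log2 odds at 0 h were 0.52 and 0.20 for CHD4 and −1.25 and −1.10 for CHD8. They were −0.84 and −0.85 for SMARCA4 and −0.28 and −0.43 for SMARCA5. The signs were thus shared by both classes of lost sites. Copies were defined after the sequences were seen, so these values are a description with no test.

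After 12 h of IAA no CHD4 excess was seen at copies. CHD4 occupied 12.53% and 7.95% of copies and 14.8% and 8.45% of other sites at 12 h. Of the 1212 copies with CHD4 in both 0 h libraries, 62.5% (exact 95% interval 59.7% to 65.2%) had it in neither 12 h library, against 47.2% (45.1% to 49.2%) of 2306 other sites. The same share was 42.2% against 34.2% for CHD8, 17% against 14.2% for SMARCA4 and 34.7% against 32.9% for SMARCA5. Sites are not replicates, so none of these differences was tested. Within copies, cohesin-free sites held CHD4 more often than cohesin-bearing copies at 0 h (log2 odds 0.25 and 0.53), while among other sites the values were −0.17 and 0.09. At 12 h they were 0.25 and 0.28 within copies and −0.18 and −0.11 among others. These log2 odds were not weighted to CTCF peak strength. Median −log10 q was 38.9 at cohesin-bearing against 15.9 at cohesin-free copies, and 47.9 against 20.8 at other sites. Whether the weighted CHD4 excess differs between copies and other sites was thus not measured. CHD8 at 12 h was at 2.68% and 1.71% of copies, below the 5.34% and 4.19% of their moved windows. SMARCA4 at 12 h was at 8.36% and 9.52% of copies, also below their moved windows (9.60% and 10.6%). SMARCA5 was at 4.83% and 5.68%, beside 4.48% and 4.55%, and moved windows held CHD4 at 9.38% and 5.01%.

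**Figure D3:**
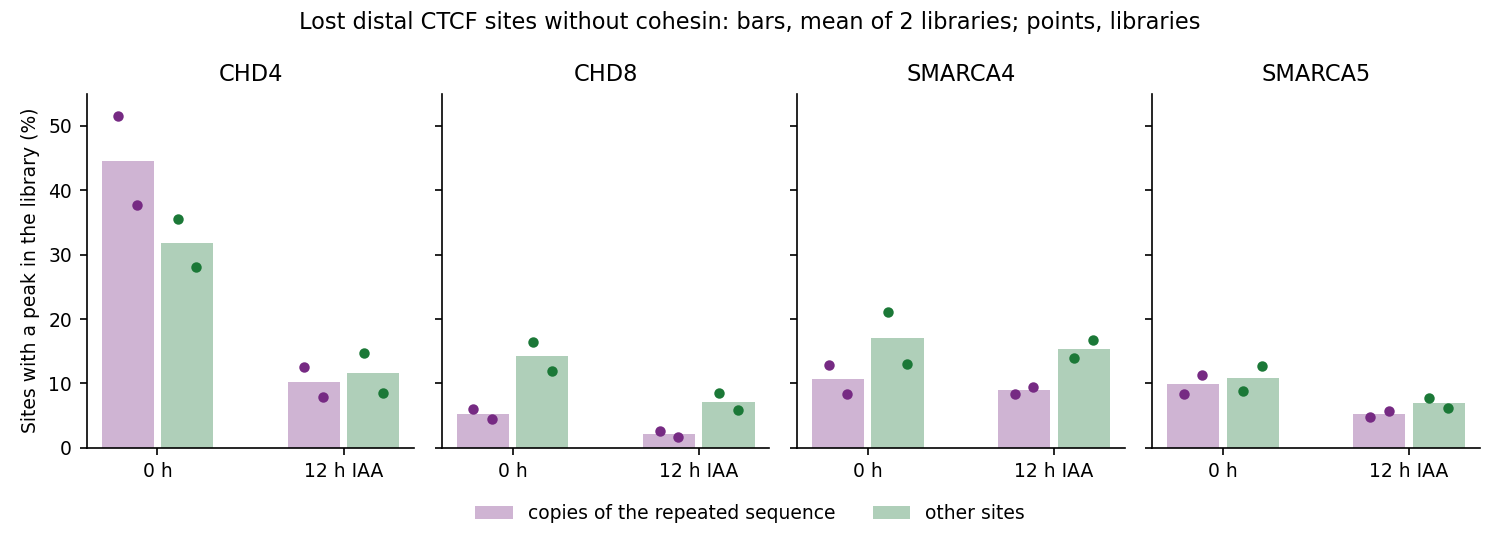
Percentage of cohesin-free lost sites with a remodeler peak (y axis) at 0 h and 12 h, for copies of the repeated sequence and for all other sites. Bars are means of 2 libraries and points are libraries. At 0 h copies stand above other sites for CHD4 (51.4% and 37.7% against 35.5% and 28.1%) and below them for CHD8 and SMARCA4.

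Many cohesin-free sites carried no remodeler peak at all. No library of either time had a peak at 6384 sites (46.8%), and 81 sites (0.593%) had one in all 16. Where both libraries of a time had to agree, 69.1% of cohesin-free sites held no remodeler at 0 h and 86.8% at 12 h. Cohesin-bearing sites were close to this, at 68.0% and 84.3%. Counting a remodeler only where both 0 h libraries agreed, 2192 sites (16.1%) carried CHD4 as their sole remodeler, against 10.4% of the cohesin-bearing sites. CHD8 stood alone at 1.11%, SMARCA4 at 2.04% and SMARCA5 at 0.703% of the cohesin-free sites, against 1.96%, 3.08% and 0.769% of cohesin-bearing ones. All 4 remodelers shared 1.77% of the cohesin-free sites, against 2.96% of cohesin-bearing sites. CHD4 also had the longest 0 h lists. At 12 h CHD4 was the sole remodeler at 230 sites (1.68%), of which 134 had been so at 0 h, and SMARCA4 alone, at 3.96%, was the most common single remodeler. At cohesin-bearing sites the 12 h shares were 1.33% for CHD4 alone and 5.28% for SMARCA4 alone, so this order was shared.

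How a site fared went with its company. Of the 1396 sites with CHD4 in both 0 h libraries and no peak of another remodeler at 0 h, 79.7% (77.4% to 81.7%) lost it in both 12 h libraries. The share was 49.1% (46.3% to 51.8%) where 1 to 3 of the 6 other 0 h libraries had a peak, and 12.8% (10.6% to 15.3%) where 4 to 6 had. CHD8 followed the same order, with 28 of 35 sites (63.1% to 91.6%), 53.9% of 349 and 23.4% of 700. SMARCA4 was lost at 52.6% of 57 (39.0% to 66.02%), 24.1% of 519 and 5.99% of 802 sites, and SMARCA5 at 93.8% of 16 (69.8% to 99.8%), 59.5% of 210 and 20.2% of 486. Sites in more libraries may also be those with higher signal, and the part of peak height in this order was not tested.

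**Figure D4:**
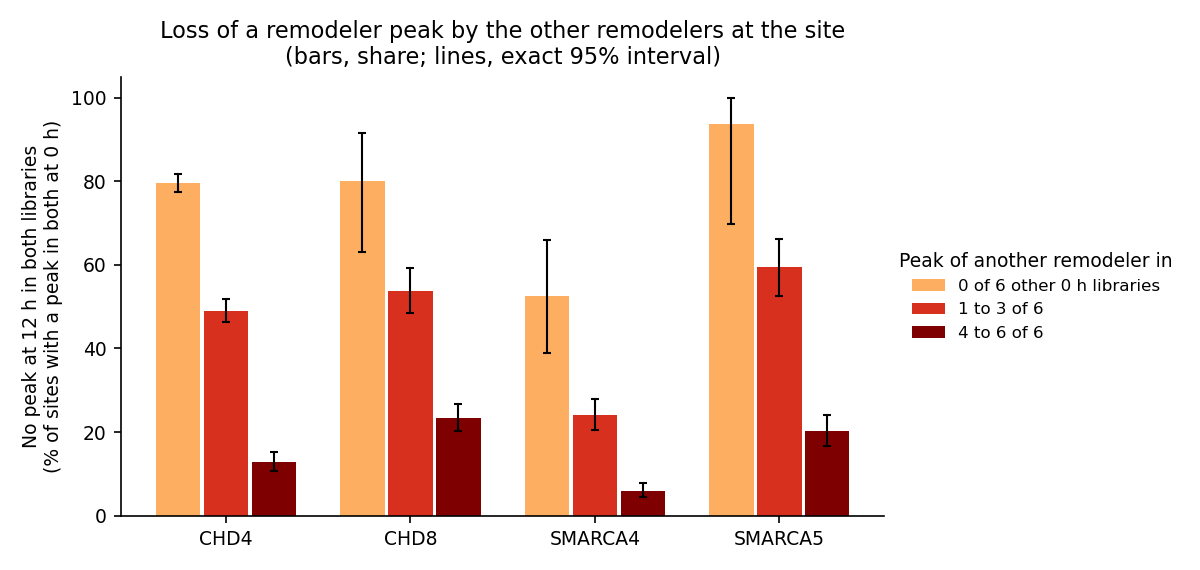
Percentage of cohesin-free sites with a remodeler peak in both 0 h libraries that had it in neither 12 h library (y axis), by how many of the 6 0 h libraries of the other remodelers had a peak there. Lines are exact 95% intervals over sites. For CHD4 the share goes from 79.7% to 49.1% and 12.8%, and the other remodelers show the same order.

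Where on the site the remodelers sat also differed. Remodeler summits no more than 250 bp from the CTCF summit were divided at 100 bp, and the share beyond that was 40.8% and 41.3% for CHD8 at 0 h and 50.3% and 53.1% at 12 h. For SMARCA4 it was 71.0% and 61.7% at 0 h and 55.2% and 56.5% at 12 h, and for SMARCA5 70.5% and 67.3% before and 54.8% and 58.0% after IAA. At 0 h the share was thus lower for CHD8 than for SMARCA4 and SMARCA5 in each library. CHD4 gave 24.8% and 48.6% at 0 h and 44.8% and 53.7% at 12 h, which overlapped between times. Its second libraries hold much narrower peaks (median width 119 and 94 bp, against 433 and 475 bp in the first). In moved windows the share was 56.3% to 64.5%, and the 12 h values of SMARCA4 and SMARCA5 lay within or under that range. The second SMARCA4 library of 0 h, at 61.7%, lay within it too, beside 60.3% in its own moved windows, while the other SMARCA4 and both SMARCA5 libraries of 0 h lay above it.

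**Figure D5:**
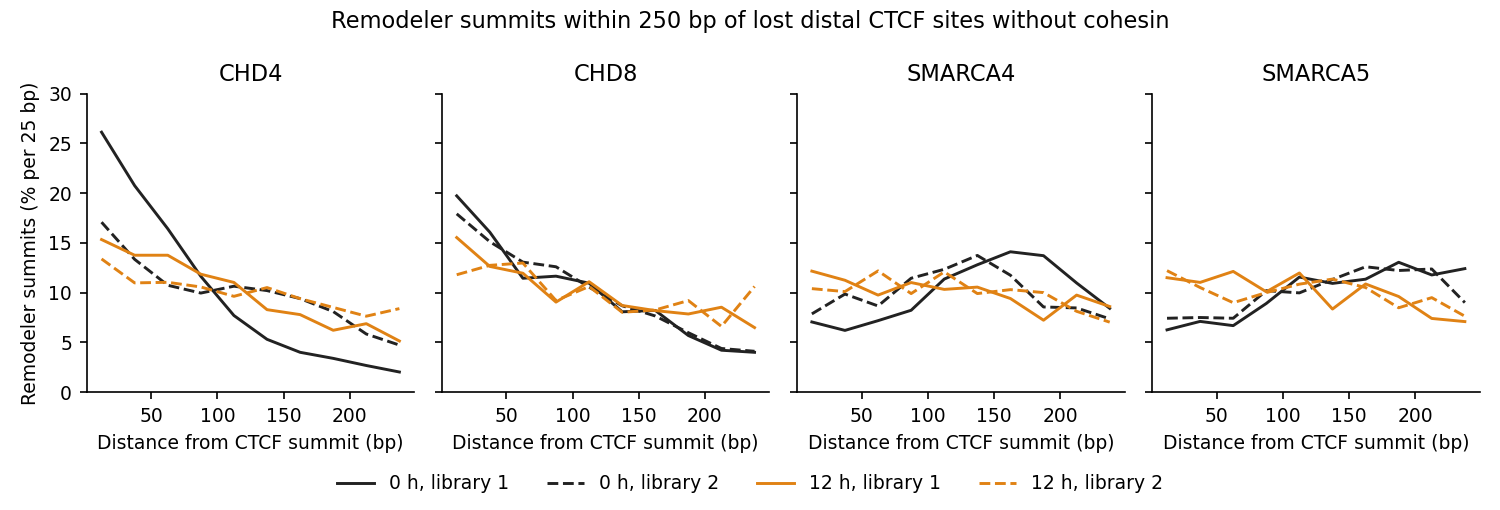
Distance of remodeler summits from the CTCF summit (x axis, bp) as a percentage of summits per 25 bp (y axis) at cohesin-free lost sites, for each library at 0 h and 12 h. At 0 h the share beyond 100 bp is 40.8% and 41.3% for CHD8 and 70.5% and 67.3% for SMARCA5.

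Single sites are named by the gene of the nearest start site, with the percentile of their peak by −log10 p within each remodeler list. The DNA shown is 20 bases to either side of the motif match, on the strand of the match, from GRCm38. The first 2 are the strongest cohesin-free CTCF sites with a match, the next 8 are the lost sites with the highest 0 h percentiles for CHD4, CHD8, SMARCA4 and SMARCA5, 2 each in that order, and the last 2 are the strongest without any remodeler peak.
Gng7: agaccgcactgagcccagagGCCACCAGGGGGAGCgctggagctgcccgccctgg
Slc44a4: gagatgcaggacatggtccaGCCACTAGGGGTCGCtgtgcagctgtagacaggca
Mir3061: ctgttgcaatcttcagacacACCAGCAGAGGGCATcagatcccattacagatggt
Zfp82: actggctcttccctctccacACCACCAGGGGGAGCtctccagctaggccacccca
Zbtb22: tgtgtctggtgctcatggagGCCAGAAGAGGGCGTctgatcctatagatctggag
Ccdc97: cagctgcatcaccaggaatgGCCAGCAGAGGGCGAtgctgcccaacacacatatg
Myo1g: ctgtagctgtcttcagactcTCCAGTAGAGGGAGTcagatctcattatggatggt
Gm22808: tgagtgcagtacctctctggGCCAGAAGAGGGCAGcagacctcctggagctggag
Gaa: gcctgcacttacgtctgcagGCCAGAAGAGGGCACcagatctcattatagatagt
Arrdc3: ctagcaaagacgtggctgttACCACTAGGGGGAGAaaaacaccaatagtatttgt
Gm22247: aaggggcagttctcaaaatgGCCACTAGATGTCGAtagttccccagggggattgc
Ext2: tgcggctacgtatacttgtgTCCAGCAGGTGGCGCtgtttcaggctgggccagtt

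The strongest cohesin-free CTCF site by −log10 q (341, fold 56.6) lay at chr1:37419281-37419970 in a UTR of Coa5, a cytochrome oxidase assembly factor, and had no motif match. CHD4 was there at percentiles 97.3 and 98.7 at 0 h and SMARCA5 at 87.1 in the second 0 h library, with no remodeler at 12 h. The Gng7 site (motif chr10:81016834-81016848, plus strand, intergenic, fold 53.7) carried only CHD8, at percentiles 38.9 and 44.4 at 0 h. The Slc44a4 site (motif chr17:34912268-34912282, minus strand) lay in an intron of Ehmt2, which encodes the histone H3K9 methyltransferase G9a. It had peaks in all 8 libraries of 0 h and in 1 of 8 at 12 h, a SMARCA4 library at percentile 93.7. All 3 sites thus held remodelers at 0 h and 1 or none of the 12 h libraries.

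CHD4 was lost from some of its highest peaks. At the Mir3061 site (motif chr11:52120605-52120619, minus strand, in an intron of Ppp2ca, the catalytic subunit of phosphatase PP2A) CHD4 ranked at percentiles 99.9 and 99.8 at 0 h, and no other library of either time had a peak. It is a copy of the repeated sequence, with 7 mismatches, and its CTCF fold was 9.05, beside a median of 8.16 at cohesin-free copies. The Zfp82 site (motif chr7:30064826-30064840, minus strand, in an intron of that zinc-finger gene) had CHD4 at 99.6 and 99.9 and is no copy, with 19 mismatches.

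For CHD8 the leading lost sites were near Zbtb22 and Ccdc97. The first (motif chr17:33915016-33915030, plus strand) lay in an intron of Daxx, a chaperone of histone H3.3, with CHD8 at 99.1 in both 0 h libraries. It is a copy with 6 mismatches and one of the few with CHD8. The second (motif chr7:25720159-25720173, plus strand, intergenic) had CHD8 at 97.8 in both. SMARCA4 was lost at the Myo1g site (motif chr11:6523870-6523884, plus strand, intergenic) from 92.2 and 92.0, and at the Gm22808 site (motif chr16:87626882-87626896, plus strand, intergenic) from 84.2 and 90.5. The Gm22808 site is a copy with 4 mismatches, and the Myo1g site, with 11, falls just outside the limit. SMARCA5 was lost at the Gaa site (motif chr11:119272691-119272705, plus strand, in an intron of that acid alpha-glucosidase gene), a copy with 7 mismatches, from 98.7 and 97.9. It was lost near Arrdc3, an arrestin family gene (motif chr13:80881895-80881909, plus strand, intergenic), from 97.8 and 97.5.

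Some strong CTCF sites had no remodeler peak in the lists. The sites near Gm22247 (motif chr4:46497728-46497742, plus strand, in an intron shared by Nans and Trim14, fold 41.8) and in an intron of Ext2, a heparan sulfate polymerase gene (motif chr2:93812061-93812075, minus strand, fold 37.6), had no peak in any of 16 libraries. At the other end, sites near Ptma, Fzd8 and Smarcd3, at CTCF folds of 41.6, 39.0 and 32.5, held a peak in all 16. Ptma encodes prothymosin alpha, Fzd8 is a Wnt receptor and Smarcd3 encodes a BAF subunit. At Ptma the CHD4 percentiles were 83.7 and 89.6 at 0 h and 34.3 and 27.1 at 12 h, while at Smarcd3 they were 96.9 and 98.3 at 0 h and 95.9 and 96.5 at 12 h. Presence in every library thus went with a lower CHD4 rank at 12 h at one site and not at the other.

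Among kept peaks, CHD8 ranked highest at a site in an intron of Adnp (chr2:168205284-168205715), whose product is the partner of CHD4 in ChAHP. CHD8 percentiles there were 99.9 and 99.9 at 0 h and 99.9 and 99.8 at 12 h. CHD4, by contrast, was at 90.8 and 90.3 at 0 h with no peak in either 12 h library. For SMARCA4 the leading kept site was a copy in an intron of Cdyl2 (chr8:116671554-116671855), with percentiles of 99.9 or more in 4 of 4 libraries. CHD4 and SMARCA5 shared theirs, at chr6:47760583-47760846 near the Y RNA gene Rny3. That site had a CTCF fold of only 2.83, no motif match and 10 mismatches to the repeated sequence, and lay 680 bp from a cohesin-bearing site. Gains led with lower ranks. CHD4 was gained at 98.8 and 64.4 in an exon of Foxp4, nearest the start of Gm15556, and CHD8 at 85.4 and 83.4 in 5031425E22Rik. SMARCA4 was gained at 93.8 and 92.4 near C1rl, and SMARCA5 at 94.6 and 97.3 near Gm27021.

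Sites were also counted by lists of genes, assigned by the nearest start site. Regulators of pluripotency had 12 cohesin-free sites at 10 of 19 genes, among them Pou5f1, Esrrb, Klf4, Klf5, Tbx3 and Zfp42. CHD4 was in both 0 h libraries at 9 of the 12 and in both 12 h libraries at 2, against 25.8% and 6.70% of all cohesin-free sites, and 1 met the call of loss. The site nearest to a start of these genes lay in an exon of Klf4 (chr4:55530229-55530711, 2010 bp away), with peaks in 7 of 8 libraries at 0 h and 5 of 8 at 12 h. SMARCA4 at these 12 sites was in both libraries at 7 before and 9 after IAA, against 10.1% and 10.4% of all cohesin-free sites.

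Lineage regulators, which act on differentiation, had 18 sites at 10 of 20 genes, among them Cdx2, Gata4, Pax6, Sox17 and T. CHD4 was in both 0 h libraries at 10 of the 18, against 25.8% of all cohesin-free sites, and lost at 5 of these 10, against 52.4%. The closest lay 1675 bp from Foxa2 (chr2:148048452-148048881), with CHD4 at percentiles 80.4 and 84.4 at 0 h and 47.4 in 1 library at 12 h. Genes of the cohesin and CTCF machinery had 3 sites at Nipbl, the cohesin loader, and Smc3, a ring subunit. Only CHD8 and SMARCA4, at 1 site each, were in both 0 h libraries there, and neither was called lost. Wnt targets had 5 sites at Axin2, Sp5 and Znrf3. CHD4, CHD8 and SMARCA4 were in both 0 h libraries at 1 of these each and SMARCA5 at 0, with 0 lost. Few peaks in these 2 lists could thus meet the call of loss. Nodal and BMP targets had 6 sites at Id3, Lefty2, Nodal and Smad6. CHD4 was in both 0 h libraries at 4 of them and lost at 1, against 52.4% of all such cohesin-free sites. Targets of p53 had 4 sites at Bbc3, Ccng1 and Phlda3. CHD8 was in both 0 h libraries at 2 of them and lost at 1, against 35.1%. At the Sp5 site CHD4 stayed at percentiles 87.5 and 96.4 before and 96.8 and 94.9 after IAA, and at the Bbc3 site, a gene of the apoptosis factor PUMA, at 98.8 and 99.3 before and 99.7 and 97.2 after. The lists hold too few sites for a comparison with these shares, and none was tested.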

How the data were processed

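ChIP-seq peak lists in the narrowPeak layout were used, 1 per sample, for 20 of 30 samples; the 10 input samples were not analysed here. The submitters' processing notes name Trim Galore, Bowtie2, MACS2, deepTools and the builds mm10 and hg38, without versions; caller settings are not given in the sources used here. The deposited lists give each peak's fold enrichment (a ratio to local background), its −log10 p and −log10 q as the authors' caller wrote them, and the distance of its summit from its start. Each list's own values served to describe its peaks, to rank them or to filter them. The lowest deposited −log10 q was 1.30, so a site without a peak may still hold signal below it. None of 1428772 peaks passed the end of a GRCm38 chromosome, the assembly that mm10 names.

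Occupancy was an overlap of at least 1 bp with the summit window of 201 bp. Reference regions were those where 6 or more of 12 libraries of both times, all of the other 3 remodelers, had a peak. They were joined over gaps of up to 100 bp, and lay over 1 kb from start sites and CTCF peaks. To each cell of an odds ratio 0.5 was added. The 12 h SMC1A list, with 10 peaks, was not used. Libraries were the units of the 5 exact tests, with Benjamini-Hochberg adjustment over them and a threshold of 0.05. Shares of sites carry exact Clopper-Pearson 95% intervals and no test, since sites of a list are not replicates. Named sites were the strongest, the highest ranked lost, kept and gained per remodeler, those in most libraries, those in none, and the nearest to each gene list. The members, the lists and the tests were chosen with earlier results of these data known. The measures and exact tests were checked on simulated data. Python 3.11.15, numpy 2.4.6, pandas 2.3.3 and scipy 1.17.1 were used.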

Additional observations from a re-analysis of the deposited data

Results flagged for a closer look

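In each result here, both libraries of one remodeler lay on one side of 0 and both libraries of another on the opposite side, or the times moved apart in opposite directions. None of these differences between remodelers was tested.

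Weighted to equal CTCF peak strength, the log2 odds of a peak at cohesin-free against cohesin-bearing lost sites at 0 h differed by 0.74 between CHD4 and CHD8, by 0.90 between CHD4 and SMARCA4 and by 0.71 between CHD4 and SMARCA5. With a summit required in the window SMARCA4 (−0.01 and 0.04) and SMARCA5 (−0.15 and 0.25) no longer lay opposite to CHD4. The change of this weighted value after IAA differed by −0.66 between CHD4 and SMARCA4 and by −0.26 between CHD8 and SMARCA4. With a summit required in the window the change was −0.49 for CHD4, 0.13 for CHD8 and −0.06 for SMARCA4. In that setting the times overlapped for CHD8 and SMARCA4, so neither difference in direction held.

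The log2 odds of a peak at copies of the repeated sequence against other cohesin-free sites at 0 h differed by 2.37 between CHD4 and CHD8, by 1.57 between CHD4 and SMARCA4 and by 0.93 between CHD4 and SMARCA5. Each remodeler had the same sign at cohesin-bearing lost sites.

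The change in the share of remodeler summits over 100 bp from the CTCF summit differed by 21.1 percentage points between CHD8 and SMARCA4 and by 23.2 between CHD8 and SMARCA5.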

How the results depend on the processing

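The mean falls over the 4 remodelers in occupancy and in relative occupancy kept their direction and their call under all alternatives run for them (11 and 13), with values of −13.3 to −3.93 points and −1.76 to −1.19 log2 odds. This does not hold for each remodeler: with a summit in the window mean SMARCA4 occupancy was 3.04% at both times and its relative occupancy differed by −0.04. The smallest mean fall in occupancy, −3.93 points, was that without CHD4. Leaving out each library in turn gave −10.1 to −7.80 points, −1.54 to −1.27 for relative occupancy, 2.86 to 4.40 for the rank change, 0.15 to 0.23 for the change of the contrast and −0.58 to −0.44 for the contrast at 0 h.

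The contrasts were less stable, and the cause was not tested. The contrast at 0 h no longer passed with a summit in the window (−0.33), in the upper 50% of lost distal sites by CTCF −log10 q (−0.15), with strength weighting (−0.058) and with the mean of 2 libraries as 1 value (−0.48), where 4 values cannot pass. The change of the contrast turned to −0.047 in the upper 50% and to −0.16 with weighting, and passed with a window of 250 bp (0.23) and over 2 kb from start sites (0.20). The rank change passed at a remodeler −log10 q of at least 5 (4.40) and with equal list lengths (4.81). Alternatives chosen after seeing the data left out both CHD4 lists of narrow peaks or all of CHD4: the rank change was then 5.05 and 6.44, and the change of the contrast 0.21 and 0.30, all past the threshold.

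Counts of lost peaks were smaller at a −log10 q of at least 5 (1067 for CHD4, 198 for CHD8, 109 for SMARCA4, 71 for SMARCA5) and with a summit in the window (1117, 174, 45 and 33). The motif share was 60.2% at the stricter score. For copies against other sites, also chosen after seeing the data, at most 6 mismatches or 50% soft-masked windows kept the sign in each remodeler (CHD4 0.62 and 0.88, CHD8 −1.86 and −1.46, SMARCA4 −1.21 and −0.68, SMARCA5 −0.55 and −0.09).

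Libraries with the same replicate number did not deviate together in their occupancy of the sites (correlations of −0.070 to 0.066). CHD4 libraries of the same number were alike in median peak width, 433 and 475 bp in the first and 119 and 94 bp in the second. What else the numbers stand for is not given. With the replicate block, occupancy changed by −8.93 points (exact permutation, adjusted p = 0.0391) and relative occupancy by −1.40 (the same adjusted p), while the change of the contrast (0.19) and the rank change (3.63) did not pass. Read depth is unknown, which limits every absence of a peak.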

Other observations

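On the X chromosome a larger share of lost distal sites was without cohesin. Of 480 such sites on X, 361 (75.2%, exact 95% interval 71.1% to 79.0%) were cohesin-free, against 56.1% of 23706 on the autosomes. CTCF peaks of lost distal sites were weaker on X (median −log10 q of 17.3 against 29.5), and the autosomal shares by strength class applied to the X sites gave 68.8%.

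Occupancy of the cohesin-free sites went with CpG content. At the 1615 sites with 6 or more CpG in the window, CHD4 occupied 57.4% ± 4.3 at 0 h and 30.2% ± 10.03 at 12 h (SD, n = 2 libraries), and SMARCA4 35.6% ± 11.5 and 37.1% ± 5.3. At the 1691 sites with 0 CpG these means were 24.2% and 5.62% for CHD4 and 8.69% and 7.27% for SMARCA4. The same windows moved by 100 kb held CHD4 at 5.40% and 5.13% and SMARCA4 at 6.24% and 7.73%. The 12 h values at sites with 0 CpG were thus near the level of moved windows. CHD8 went from 35.3% to 22.1% at the CpG-rich sites and from 4.41% to 1.89% at those with none, where windows moved by 100 kb held it at 3.4% and 3.42%.

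Distance to the nearest cohesin-bearing CTCF site went with occupancy too. CHD4 was at 44.4% ± 6.0 of the cohesin-free sites within 10 kb of one at 0 h, and at 25.6% ± 5.9 of those over 50 kb away, while windows moved by 100 kb gave 8.77% and 4.26%.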
